A study of Mus musculus with 6 samples.

Results

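The macrophage and leukocyte genes described here are 38 genes, given as a list of symbols, that mark macrophages, other phagocytes or white blood cells in general. All 38 were found by symbol among the 46095 rows of the count table, and 33 of them had enough counts to be among the 14757 genes tested. They were measured in induced brown adipocytes, cells of the heat-producing fat type that were grown in culture from brown adipose tissue, starting with its stromal vascular fraction (SVF). The SVF is what a collagenase-digested fat pad yields besides its fat cells, and it holds preadipocytes together with endothelial cells, macrophages and other leukocytes. The donors were C57BL/6 mice 5 weeks old, and the RNA was sequenced from 3 control libraries and from 3 libraries of the U-IRX3ov genotype, titled KI by the submitters.

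Cells of both groups had been grown to confluence and then induced for 8 days. The induction medium held insulin, dexamethasone, rosiglitazone, triiodothyronine and IBMX at first, and insulin, rosiglitazone and triiodothyronine afterwards. A step that sorts or removes leukocytes, the promoter and construct of U-IRX3ov, and the number of mice or cultures behind a library are not stated in the sources used here. A p-value therefore measures the spread between these 3 and 3 libraries, which may be technical. The question addressed is how far transcripts of macrophages differed between the differentiated cultures of the 2 genotypes.

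Macrophages are tissue phagocytes that arise from monocytes or from embryonic precursors. Their identity depends on the transcription factor PU.1, and their survival and division on signals through the receptor CSF1R. In adipose tissue, resident macrophages clear dead cells and lipid, remodel matrix and exchange signals with adipocytes and preadipocytes, and macrophages of the SVF attach to culture plastic together with the preadipocytes.

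Library totals ran from 20094799 to 26755870 counts. Levels are TMM-scaled CPM, that is, each count relative to the library total after a normalization (TMM) that sets the bulk of genes equal between libraries, and each mean and SD is over n = 3 libraries. Irx3 was at 5.11 ± 0.32 CPM in control and 6.16 ± 0.23 in U-IRX3ov (log2 fold change 0.27 ± 0.13 (SE), adjusted p = 0.112 by edgeR's quasi-likelihood test), a difference that did not pass the threshold of 0.05. Ucp1, the uncoupling protein of brown fat, rose from 19.7 ± 1.19 to 240 ± 24.1 CPM (adjusted p = 1.18e-11, edgeR).

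Transcripts of macrophages were lower in the U-IRX3ov cultures. Of the 33 genes tested 30 fell, against 21.1% of all genes tested that fell by the same edgeR rule (adjusted p under 0.05), and 1 rose, against 20.2% of all genes. Cd52 and Mertk did not pass the test. The falls included the mannose receptor Mrc1 (4.65-fold lower), the lysozyme Lyz2 (2.47-fold lower), the growth factor receptor Csf1r (2.23-fold lower) and the pan-leukocyte phosphatase Ptprc (2.51-fold lower), while the galectin Lgals3 was the gene that rose. In these bulk libraries fewer macrophages and less macrophage RNA per cell cannot be told apart.

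The median log2 fold change of the 33 tested genes was -1.28, beside -0.00 over all genes tested. A fall of at least 2-fold was called for 26 of them, beside 3.04% of all genes. Every U-IRX3ov library was below every control library in 30 of the 33, the same 30 that were called, beside 25.9% of all genes. Of the 33 genes, 30 passed the filter on low counts in both groups, and 27 of these fell. Clec4n, Cd163 and Ear2 passed it only through the control libraries, where they are high. Passing in this way favours a fall, though it does not fix one. All of them are also among the 26 genes with a fall of at least 2-fold and among the 30 without overlap. They add nothing to any of these counts.

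**Figure D1:**
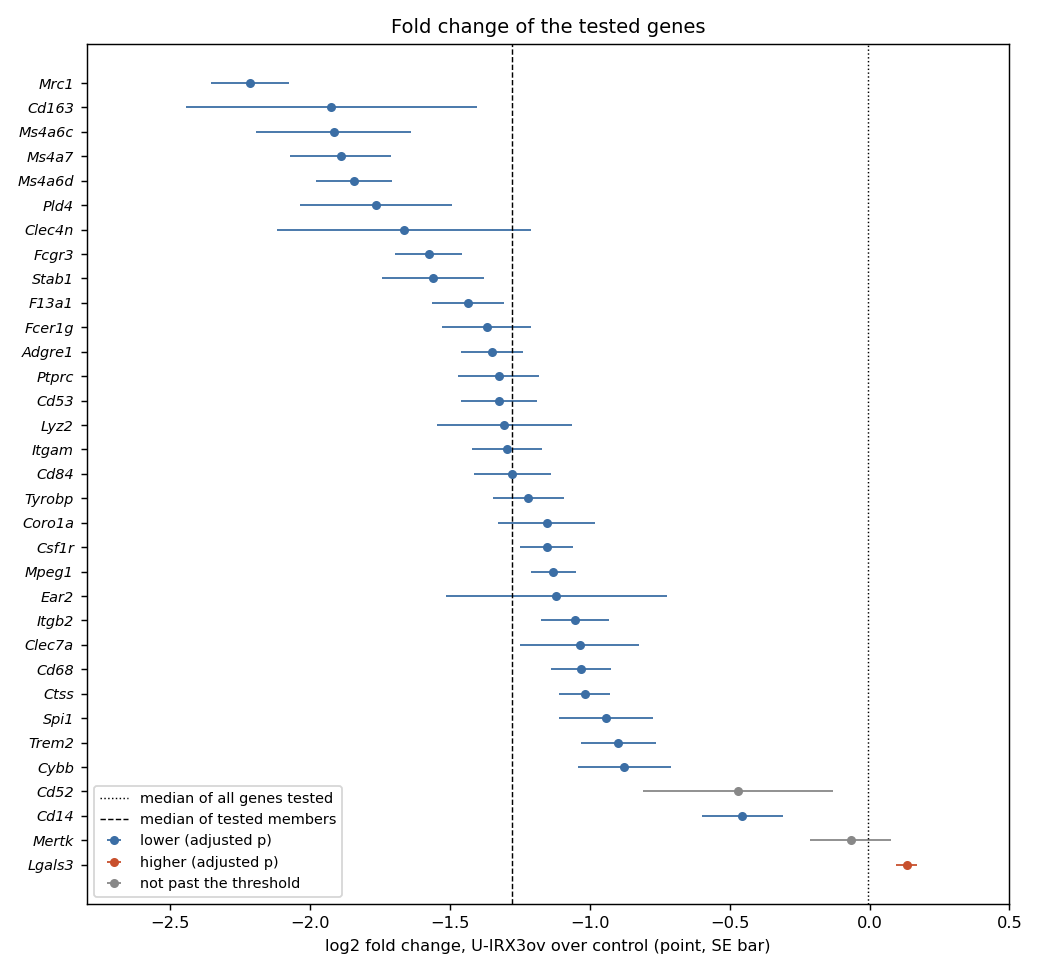
Log2 fold change (x axis, U-IRX3ov over control) of each of the 33 tested genes, with the SE as a bar and the median of these genes (-1.28) and of all genes tested as vertical lines. Mrc1 lies farthest to the left at -2.22, Cd52, Cd14 and Mertk lie between the bulk and 0, and Lgals3 lies to the right of 0.

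Added up over all 38 genes, the members held 939, 874 and 1009 CPM in the control libraries and 553, 464 and 550 CPM in the U-IRX3ov libraries. The sum was thus 1.80-fold lower, and the groups did not overlap. Before TMM scaling, the raw counts of the members were 0.0902% to 0.105% of all counts in control and 0.0450% to 0.0537% in U-IRX3ov. Lgals3, which adipocytes and fibroblasts also express, made up 21.4% to 24.1% of the sum in control and 41.2% to 50.2% in U-IRX3ov. Without it the sum was 2.50-fold lower, at 731 ± 64.9 CPM in control and 293 ± 53.7 in U-IRX3ov.

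**Figure D2:**
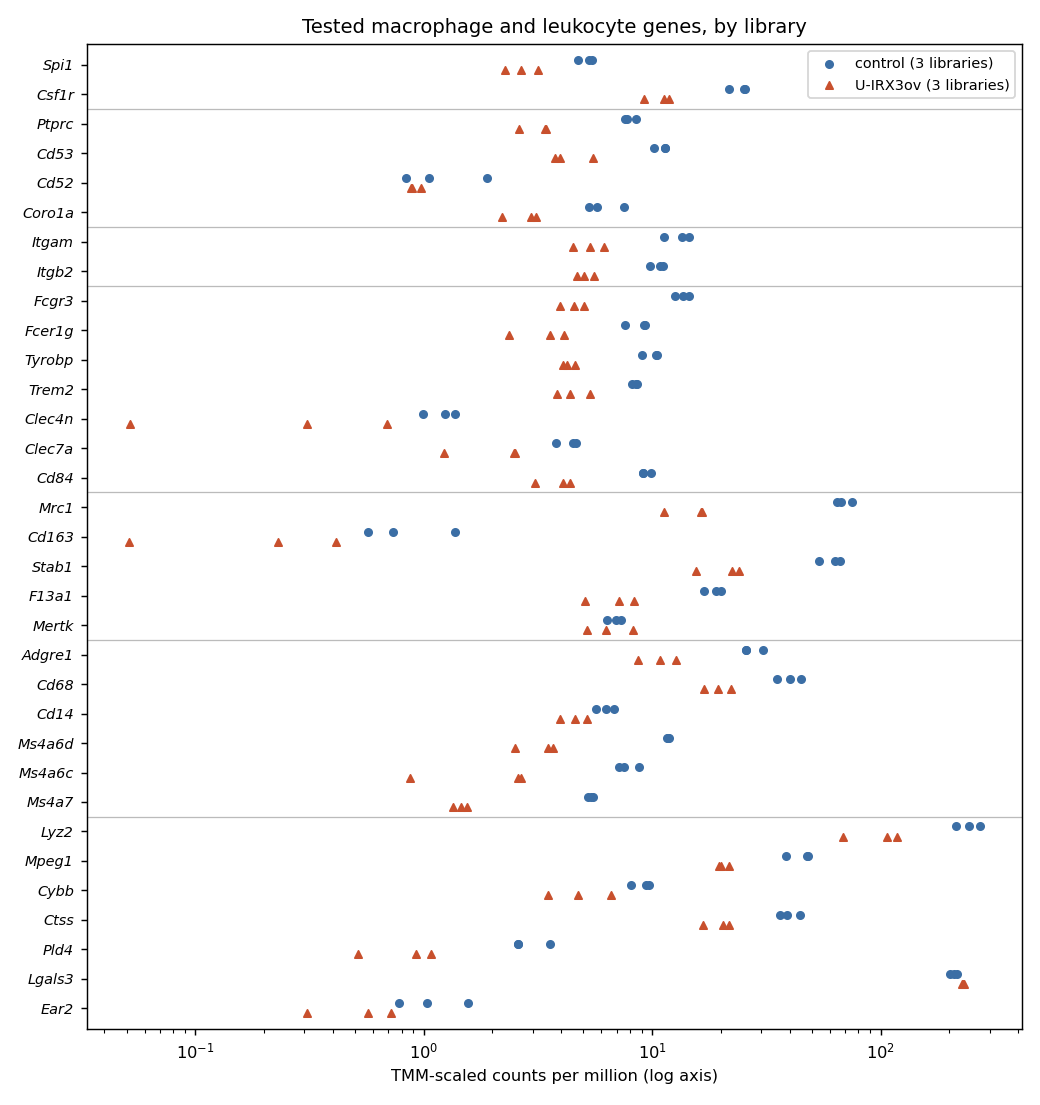
Level of each of the 33 tested genes in the 6 libraries, in TMM-scaled CPM on a log axis, with circles for control and triangles for U-IRX3ov and lines between the roles. The triangles lie to the left of the circles in 30 genes, overlap them in Cd52 and Mertk, and lie to the right in Lgals3.

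The lineage factor and the growth factor receptor both fell. Spi1 encodes PU.1, the ETS-family transcription factor needed to form macrophages. It stood at 5.29, 5.46 and 4.75 CPM in control and at 2.65, 2.26 and 3.15 CPM in U-IRX3ov, a log2 fold change of -0.94 ± 0.17 (SE, adjusted p = 4.45e-05, edgeR). Csf1r, the receptor for CSF1 and IL-34, stood at 25.4, 21.6 and 25.3 CPM in control and at 11.3, 9.24 and 11.9 in U-IRX3ov. Its log2 fold change was -1.15 ± 0.09 (SE, adjusted p = 8.97e-11, edgeR), and in both genes the highest U-IRX3ov library was below the lowest control library. Csf1r lies opposite Hmgxb3, whose reads could be mixed with its own if counting ignored strand, and the log2 fold change of Hmgxb3 was 0.06 (adjusted p = 0.341, edgeR).

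PU.1 binds the purine-rich core GAGGAA, so the promoters of the members were searched for it as letters. RefSeq promoters on GRCm38.p6, from 250 bases before to 50 after a start, matched 29 of the 38 genes, with 35 promoters because some genes have several starts. GAGGAA on either strand stood in 20 of these 35 (57.1%), beside 28.3% of all 32851 promoters of the same length. The longer form GAGGAAGT, which contains the first, stood in 4 of the 35 (11.4%), beside 3.20% of all promoters. Several starts of 1 gene share bases, so the promoters are not independent, and a match is a description of letters and not a binding site. The windows of 30 bases below show the 4 promoters with the longer form, and then the shorter form in Mrc1, Stab1 and Itgam, whose levels are described below. They run 5′ to 3′ on the strand of the gene, and capitals mark the motif, or its reverse complement where it lies on the other strand.

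Cd53, chr3:106790125-106790154, minus strand: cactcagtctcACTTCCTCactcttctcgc
Ctss, chr3:95526773-95526802, plus strand: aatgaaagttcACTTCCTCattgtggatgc
F13a1, chr13:37049181-37049210, minus strand: cgagtccttttGAGGAAGTacccagaggca
Pld4, chr12:112760653-112760682, plus strand: ctcagaacaaaGAGGAAGTgaatggaaggg
Mrc1, chr2:14229367-14229396, plus strand: aaaagggacagcTTCCTCtgtcctcctttt
Stab1, chr14:31168654-31168683, minus strand: gctgatacgcagGAGGAAatcctggtgggt
Itgam, chr7:128062613-128062642, plus strand: tctcatagctttTTCCTCatacttctctgt

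The middle of the longer form lay within 25 bases of the start in all 4 of these promoters, beside 21.3% of the 1052 promoters that hold it anywhere. The limit of 25 bases was not part of the planned search, so these shares describe the sites and cannot be weighed against each other. In F13a1 the start used is one of several. The 4 genes with the longer form all fell, with log2 fold changes of -1.32 (Cd53), -1.02 (Ctss), -1.44 (F13a1) and -1.76 (Pld4). Of all 33 tested genes 30 fell, and a link between the motif and the fall was not tested. Of the 29 matched genes 17 had GAGGAA in this window, and of these 15 fell and 2 were not tested. The other 12 had none. They were 7 genes that fell (Cd163, Coro1a, Ear2, Fcer1g, Lyz2, Mpeg1 and Ms4a6c), Mertk and Lgals3, which did not fall, and 3 that were not tested (Ccr2, Cx3cr1 and Itgax). Cd52 was among the genes without a matched promoter.

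Of the 5 pan-leukocyte genes 3 fell, 1 did not pass and 1 was not tested, and their summed level was 2.35-fold lower. Ptprc encodes CD45, the surface phosphatase of nearly all white blood cells. It fell from 7.94 ± 0.464 to 3.15 ± 0.461 CPM. Cd53, a tetraspanin of leukocytes, stood at 10.2, 11.3 and 11.4 CPM in control and at 3.77, 3.95 and 5.53 in U-IRX3ov. Coro1a, an actin-binding protein of leukocytes, fell by 1.16 ± 0.17 on the log2 scale (SE, adjusted p = 3.61e-06, edgeR). Bola2 lies opposite part of Coro1a and fell by 0.24 (adjusted p = 0.0436, edgeR).

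Cd52 encodes a short glycoprotein anchored to the leukocyte surface. It had 1.06, 0.840 and 1.89 CPM in control and 0.884, 0.975 and 0.878 in U-IRX3ov, and the groups overlapped. Its log2 fold change of -0.47 ± 0.34 (SE, adjusted p = 0.283, edgeR) was within the spread between libraries at this low level.

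Both tested chains of the beta2 integrins, the adhesion receptors of phagocytes, fell. Itgam (CD11b) stood at 13.5, 11.3 and 14.5 CPM in control and at 5.35, 4.52 and 6.15 in U-IRX3ov, a fall of 1.30 ± 0.13 on the log2 scale (SE, adjusted p = 2.3e-09, edgeR). Its partner chain Itgb2 (CD18) stood at 11.2, 9.82 and 10.8 CPM in control and at 5.54, 5.03 and 4.70 in U-IRX3ov. Neither gene had overlapping groups. Itgax (CD11c), a marker of dendritic cells and of some adipose macrophages, had 5, 10 and 4 counts in control and 1, 2 and 1 in U-IRX3ov, too few to be tested.

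Of the 7 receptors and adaptors of the Fc, TREM and C-type lectin group, the 6 that passed the filter in both groups all fell, and the summed level of the 7 was 2.42-fold lower. Fcgr3, an activating receptor for immunoglobulin G on chromosome 1 (mm10, chr1:171051174-171064935), fell most among the 6 that passed the filter in both groups. It stood at 13.7, 12.5 and 14.4 CPM in control and at 5.04, 3.95 and 4.55 in U-IRX3ov, a fall of 1.58 ± 0.12 on the log2 scale (SE, adjusted p = 1.66e-11, edgeR). Fcgr3 shares sequence with other Fc gamma receptors, so its counts are uncertain where reads matched several of them.

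The signalling adaptors of these receptors carry the ITAM that recruits the kinase SYK. Tyrobp (DAP12) stood at 10.6, 9.05 and 10.4 CPM in control and at 4.23, 4.05 and 4.60 in U-IRX3ov, 2.33-fold lower. Fcer1g, the common gamma chain, fell by 1.37 ± 0.16 on the log2 scale (SE, adjusted p = 8.77e-08, edgeR). In both adaptors every U-IRX3ov library was below every control library.

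Trem2, a lipid-sensing receptor that signals through Tyrobp, fell by 0.90 ± 0.14 on the log2 scale (SE, adjusted p = 3.83e-06, edgeR). Cd84, a homotypic receptor of the SLAM family, fell by 1.28, and Clec7a (Dectin-1, a receptor for fungal glucans) by 1.04. Clec4n (Dectin-2), which passed the filter through control only, had 0.993 to 1.37 CPM in control and 0.0516 to 0.692 in U-IRX3ov.

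The scavenger and resident macrophage genes had the widest range. Their summed level was 3.19-fold lower, 156 ± 10.2 CPM in control and 49.0 ± 10.3 in U-IRX3ov, yet Mertk in the same group did not pass the test. Mrc1 (CD206, mm10 chr2:14229392-14332057), the mannose receptor that takes up glycoproteins, stood at 64.4, 67.4 and 74.9 CPM in control. It stood at 16.5, 11.2 and 16.4 CPM in U-IRX3ov, a fall of 2.22 ± 0.14 on the log2 scale (SE, adjusted p = 1.68e-05, edgeR), the lowest value among the 33 genes. Stab1, a scavenger receptor for modified lipoproteins and matrix fragments, stood at 66.6, 53.7 and 63.1 CPM in control and at 23.9, 15.6 and 22.3 in U-IRX3ov (fall of 1.56 ± 0.18 SE on the log2 scale, adjusted p = 0.00216, edgeR). The gene Nt5dc2 lies opposite Stab1 and fell by 0.21 (adjusted p = 0.0314, edgeR).

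F13a1, the A chain of coagulation factor XIII, which macrophages also make, stood at 20.1, 16.8 and 19.0 CPM in control and at 7.15, 5.08 and 8.37 in U-IRX3ov. It fell by 1.44 ± 0.13 on the log2 scale (SE, adjusted p = 1.82e-08, edgeR), with no overlap between the groups. Cd163, the receptor for haemoglobin and haptoglobin, was low in both groups, at 0.573 to 1.37 CPM in control and 0.0513 to 0.413 in U-IRX3ov.

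Mertk is a receptor kinase by which macrophages and some other cells engulf dying cells. It stood at 6.35, 6.95 and 7.31 CPM in control and at 6.27, 5.18 and 8.26 in U-IRX3ov. The U-IRX3ov libraries spanned the whole control range, and the log2 fold change was -0.07 ± 0.14 (SE, adjusted p = 0.743, edgeR). Its fold change turned to 0.069 when U-IRX3ov library 2 was left out.

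Of the 7 general macrophage genes 6 fell and Aif1 was not tested. Adgre1 (F4/80), the surface receptor most used to mark mouse macrophages, stood at 25.7, 25.9 and 30.7 CPM in control and at 10.8, 8.67 and 12.8 in U-IRX3ov, 2.55-fold lower. Cd68, a lysosomal membrane glycoprotein, stood at 40.2, 35.1 and 44.7 CPM in control and at 22.1, 16.8 and 19.4 in U-IRX3ov, 2.05-fold lower. Neither had overlapping groups. Cd14, the coreceptor for lipopolysaccharide, fell by less, 0.46 ± 0.14 on the log2 scale (SE, adjusted p = 0.0122, edgeR), and this call was lost without control library 1 (adjusted p = 0.0672) and without U-IRX3ov library 2 (adjusted p = 0.068).

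The 3 Ms4a genes encode membrane proteins with 4 spans and stand near one another on chromosome 19. Ms4a6d (mm10, chr19:11586604-11604849) stood at 11.7, 11.7 and 11.9 CPM in control and at 3.69, 2.51 and 3.51 in U-IRX3ov, a fall of 1.84 ± 0.14 on the log2 scale (SE, adjusted p = 8.08e-12, edgeR). Ms4a6c (chr19:11469366-11482192) fell by 1.92 ± 0.28 and Ms4a7 (chr19:11321039-11336146) by 1.89 ± 0.18. All 3 had a fold change below -1.8, near that of Mrc1. Ms4a6c and Ms4a6d are close copies, so reads could have been shared between them.

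Other Ms4a genes of the same stretch, named after their values were seen, fell as well. Ms4a6b had a log2 fold change of -2.03 ± 0.26 (SE, adjusted p = 1.68e-06, edgeR). Ms4a4d was higher in level and fell by less, from 58.7 to 44.2 CPM (-0.41 ± 0.06, adjusted p = 1.02e-06, edgeR). Ms4a4a (-2.49) and Ms4a14 (-1.47) passed the filter through control only, which favours low values in U-IRX3ov, so they add nothing here.

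Of the 7 lysosomal, secreted and effector genes 6 passed the filter in both groups, and of these 5 fell and Lgals3 rose. Lyz2, the lysozyme of macrophages and neutrophils, stood at 243, 214 and 272 CPM in control and at 118, 68.6 and 107 in U-IRX3ov. It fell by 1.31 ± 0.24 on the log2 scale (SE, adjusted p = 0.0147, edgeR) with no overlap, and its adjusted p was 0.0534 without control library 1, 0.0507 without control library 3 and 0.0511 without U-IRX3ov library 3. Lyz1 is a near-identical copy, so the counts of Lyz2 are uncertain where reads matched both.

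Mpeg1, a pore-forming protein of phagosomes, stood at 48.2, 38.5 and 47.6 CPM in control and at 20.1, 19.7 and 21.6 in U-IRX3ov, 2.19-fold lower (adjusted p = 4.99e-11, edgeR). Ctss, the lysosomal protease cathepsin S, stood at 38.9, 36.1 and 44.2 CPM in control and at 20.5, 16.7 and 21.6 in U-IRX3ov, 2.03-fold lower (adjusted p = 6.23e-08, edgeR). In both the groups were well apart. Cybb, the catalytic subunit of the phagocyte NADPH oxidase, fell by 0.88 ± 0.17, and Pld4, an endolysosomal exonuclease, by 1.76 ± 0.27 on the log2 scale. Ear2, an eosinophil-associated ribonuclease of a family of close copies, passed the filter through control only. It had 0.779 to 1.57 CPM in control and 0.308 to 0.718 in U-IRX3ov. Its fall of 1.12 ± 0.39 (SE, adjusted p = 0.0238, edgeR) was not called without control library 1 (adjusted p = 0.183), U-IRX3ov library 1 (0.165) or U-IRX3ov library 3 (0.053), nor by DESeq2 (adjusted p = 0.0572).

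Lgals3 encodes galectin-3, a lectin that binds galactosides (mm10, chr14:47367751-47386160). It stood at 201, 210 and 216 CPM in control and at 228, 233 and 227 in U-IRX3ov. All U-IRX3ov libraries were above all control libraries, by a small margin, and the log2 fold change was 0.13 ± 0.04 (SE, adjusted p = 0.00533, edgeR). Without control library 1 it was 0.10 and did not pass (adjusted p = 0.0572).

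Per length, as CPM per kilobase of exon, the highest level in control was that of Lyz2, 185, followed by Lgals3 with 113, Cd68 with 31.8 and Ctss with 29.3. The levels of Cd68 and Ctss differed by less than their spread between libraries. In U-IRX3ov Lgals3 came first with 123 and Lyz2 next with 74.4, while Mrc1 went from rank 6 (10.8) to rank 12 (2.31).

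The 5 genes that were not tested were Laptm5, Itgax, Aif1, Cx3cr1 and Ccr2. Laptm5, a lysosomal protein of leukocytes that is usually plentiful in macrophages, had 9, 4 and 3 counts in control and 1, 0 and 2 in U-IRX3ov. Cx3cr1, the fractalkine receptor, reached at most 0.229 CPM, and Ccr2, the receptor by which monocytes enter tissue, was listed at 0 in every library.

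Aif1 (IBA1, mm10 chr17:35170991-35176068), an actin-bundling protein and common macrophage stain, was also listed at 0 in every library. It lies in a run of 29 consecutive protein-coding genes at 0, from Vwa7 to H2-Q2 (chr17:35016579-35346762). That run holds Clic1, Csnk2b, Bag6, Prrc2a, Ddx39b and H2-D1, which nearly every cell type uses. Of the 32 protein-coding neighbours within 200 kb, 29 (90.6%) were at 0, beside 22.3% of all protein-coding genes in the table. Low counts went on beyond this run. Of the 61 protein-coding genes up to 1 Mb below Aif1 on the chromosome, 34 were at 0 and none had more than 393 counts over the 6 libraries, and the class II genes H2-Aa, H2-Ab1 and H2-Eb1 lie there. Above Aif1 the highest of 46 genes had 22323. The 0 of Aif1 and Tnf, and the low counts of those class II genes, therefore cannot be read as absence of the transcript.

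**Figure D3:**
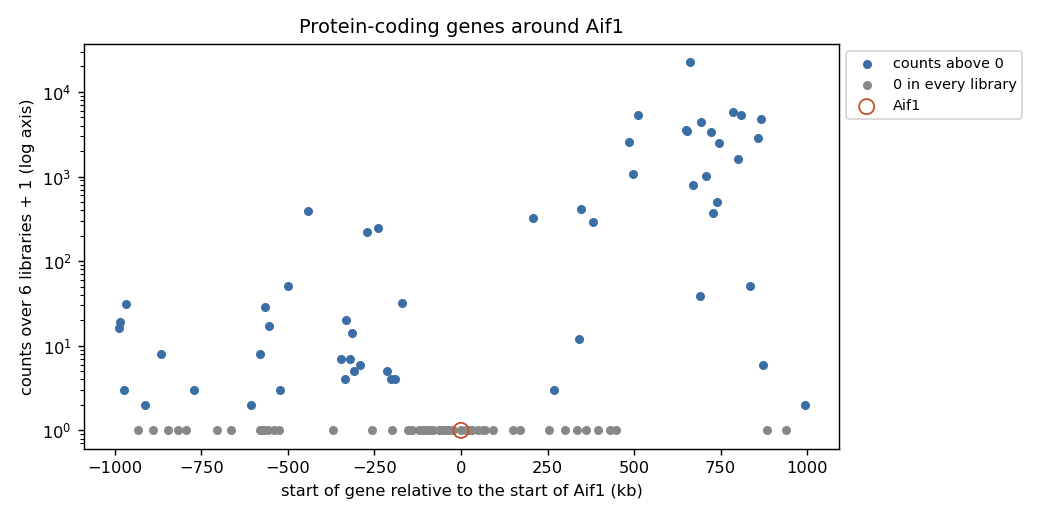
Counts summed over the 6 libraries plus 1 (log axis) of protein-coding genes against the distance of their start from that of Aif1 in kb, with grey points for genes at 0 in every library. Grey points are packed around Aif1 (open circle), where 29 of the 32 neighbours within 200 kb are at 0.

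The members did not stand equally low in the 3 U-IRX3ov libraries. Relative to the control mean, the median log2 level of the 33 genes was 0.01, -0.14 and 0.07 in control libraries 1, 2 and 3 and -1.18, -1.52 and -1.06 in U-IRX3ov libraries 1, 2 and 3. U-IRX3ov library 2 was the lowest of its group in 25 of the 30 genes that fell, beside 35.4% of all genes tested. Control library 2 was the lowest of its group in 20 of the 30, beside 32.7% of all genes. Without U-IRX3ov library 2 the median log2 fold change of the tested genes was -1.18.

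**Figure D4:**
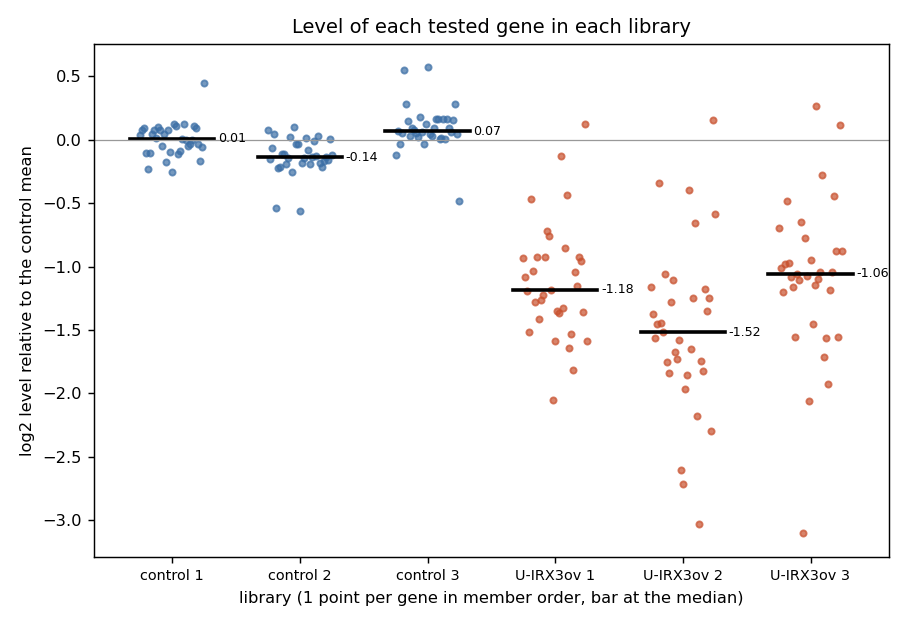
Log2 level of each of the 33 tested genes in each library relative to its control mean (CPM plus 0.1), 1 point per gene, with the median of the library as a bar. The medians are 0.01, -0.14 and 0.07 in the control libraries and -1.18, -1.52 and -1.06 in the U-IRX3ov libraries.

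Ratios within a library show whether members kept their proportions, and 7 pairs were compared by a two-sided exact permutation test, for which 3 against 3 libraries cannot give a p under 0.1. The log2 ratio of Mrc1 to Csf1r was 1.34, 1.64 and 1.57 in control and 0.55, 0.28 and 0.47 in U-IRX3ov, lower by 1.08 with no overlap (exact p = 0.1, adjusted over the 7 pairs 0.175). Lgals3 to Csf1r was higher by 1.29, Trem2 to Tyrobp by 0.31 and Ctss to Csf1r by 0.14, each without overlap (exact p = 0.1, adjusted 0.175). In the pairs Lyz2 to Csf1r (lower by 0.18, exact p = 0.3), Cd163 to Csf1r (exact p = 0.4) and Itgax to Itgam (exact p = 0.6) the groups overlapped. No pair passed the threshold, which this number of libraries cannot reach.

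Other genes of the same pathways moved with the members. All 3 genes of C1q, the complement starter that tissue macrophages secrete, fell, with a median log2 fold change of -1.43. C1qb, for example, went from 34.7 to 13.2 CPM (adjusted p = 4.77e-13, edgeR). All 5 partners of Cybb in the NADPH oxidase fell, among them Cyba, the membrane partner (log2 fold change -0.81), and the GTPase Rac2 (log2 fold change -1.51). Of 10 genes that signal downstream of Tyrobp and Fcer1g, 8 passed the filter in both groups and all 8 fell (median -1.11), and Btk (-1.12) passed it through control only. Among them Inpp5d, the SHIP1 phosphatase, fell by 1.40 and the kinase Syk by 0.79. Of the other Fc gamma receptors, Fcgr1 passed the filter in both groups and fell by 1.29. Fcgr2b (-1.77) and Fcgr4 (-0.62, which did not pass the test, adjusted p = 0.283 by edgeR) passed it through control only.

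Both ligands of Csf1r fell too. Csf1, the main macrophage growth factor, which stromal cells make, stood at 1536 CPM in control and 983 in U-IRX3ov, a fall of 0.64 ± 0.03 on the log2 scale (SE, adjusted p = 1.13e-14, edgeR). Il34 went from 11.4 to 6.96 CPM, a fall of 0.72 ± 0.11 (SE, adjusted p = 4.04e-06, edgeR). In each the 3 U-IRX3ov libraries were below the 3 control libraries. Of the 7 chemoattractants of monocytes and macrophages 4 passed the filter in both groups, and of these Ccl7 (-0.90) and Cx3cl1 (-0.83), the ligand of Cx3cr1, fell. Ccl4, Ccl8 and Ccl12 were lower too but passed it through control only. Ccl2, the ligand of Ccr2, did not pass (log2 fold change -0.51, adjusted p = 0.103, edgeR), nor did Ccl3.

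The transcription factors and marker sets of macrophage states were mixed. Of 7 other myeloid transcription factors tested 5 fell (median -0.46), among them Maf (-0.99) and Runx1 (-0.39, 65.4 CPM in control), which are not limited to myeloid cells, while Nr1h3 (LXR alpha), which adipocytes also express, rose by 0.21. Of the resident adipose macrophage markers outside the members 3 of 8 passed the filter in both groups and fell, Folr2 (-0.62), Cbr2 (-0.49) and Gas6 (-1.03), a secreted ligand of Mertk. In Folr2 the groups overlapped (adjusted p = 0.0433, edgeR). Gas6 stood at 656 CPM in control, beside 24.1 for Csf1r, and fibroblasts express it too. Lyve1 (-1.40) passed the filter through control only. Of the 7 lipid-associated macrophage markers 3 fell, 3 rose and Spp1 did not pass, with a median of -0.08. Gpnmb fell by 0.74, whereas Cd36 and Fabp5, which adipocytes express strongly, and the elastase Mmp12 rose by 0.18, 0.51 and 0.87. Of the engulfment receptors 4 of 5 tested fell, Marco (-1.09), Msr1 (-0.98), Tyro3 (-0.55) and Axl (-0.31). Axl, a relative of Mertk, stood at 425 CPM in control, and fibroblasts also express it. Of 6 inflammatory products 2 were tested, Il6 fell by 1.15 and Ptgs2 did not pass.

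Markers of lymphocytes were near 0. No T cell, B cell or natural killer cell marker had enough counts to be tested, with at most 5 counts a library in all for the 8 T cell genes (Cd3d and Cd3g at 0) and for the 5 B cell genes (Ms4a1 at 0), and 0 for the 5 natural killer cell genes. Of 6 neutrophil, 6 mast cell and 6 dendritic cell markers 1 each was tested. S100a8, of neutrophils, did not pass. Zbtb46, a factor of dendritic cells that endothelial cells also express, stood at 8.03 CPM in control and 8.51 in U-IRX3ov and did not pass. Ptprc stood at 7.94 CPM in control and 3.15 in U-IRX3ov. The dendritic cell genes Xcr1 and Ccr7 were at 0. Kit rose by 0.68 (adjusted p = 0.0174, edgeR), from 1.69 to 2.69 CPM, with the mast cell genes Fcer1a and Mcpt4 at 0. Kit was not called without U-IRX3ov library 1 or without U-IRX3ov library 2. Of 7 genes of MHC class II presentation, some of them in the stretch of low counts near Aif1, only H2-DMb1 was tested. H2-DMb1 passed the filter through control only, at 0.533 CPM in control and 0.540 in U-IRX3ov. Its difference did not pass the test (log2 fold change -0.01, adjusted p = 0.988, edgeR). Cd74, the invariant chain of that system, had 1 to 11 counts a library. Osteoclast markers did not move together, since Ctsk fell by 1.11 and Acp5 rose by 0.82.

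Markers of the other cells of the cultures differed between the groups as well. All 9 preadipocyte and fibroblast markers fell, Pi16 among them after passing the filter through control only, with a median of -0.61 and summed levels of 4914 to 5006 CPM in control and 3122 to 3419 in U-IRX3ov. Col1a1 held the largest part of that sum, with 3473 CPM in control and 2274 in U-IRX3ov. Of 8 adipocyte markers 7 rose (median 0.29), and the summed levels of the 8 were 26120 to 26934 CPM in control and 33261 to 34657 in U-IRX3ov. Fabp4 held the largest part of that sum, with 12693 CPM in control and 18682 in U-IRX3ov. Lpl, at 8277 CPM in control and 8588 in U-IRX3ov, did not pass. Of 6 endothelial markers 4 rose (median 0.95), with summed levels of 19.2 to 22.8 CPM in control and 38.6 to 44.0 in U-IRX3ov. Their part in the fall of the macrophage genes was not tested.

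**Figure D5:**
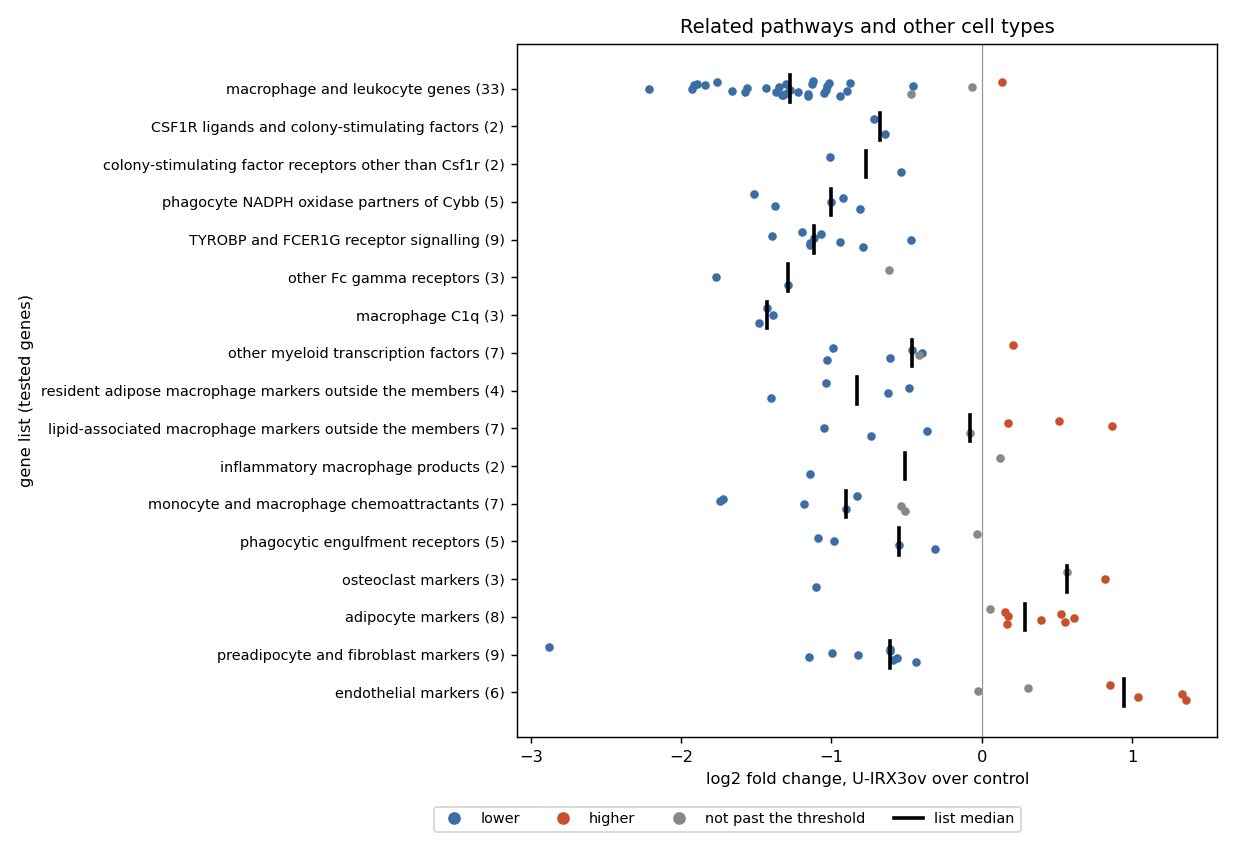
Log2 fold change (x axis, U-IRX3ov over control) of each tested gene in the macrophage and leukocyte list and in 16 related lists, with the number tested in brackets and the median of each list as a bar. The C1q list has a median of -1.43 and the signalling list of -1.12, with genes included that passed the filter through control only, the preadipocyte list -0.61, the adipocyte list 0.29 and the endothelial list 0.95.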

How the data were processed

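RNA sequencing of 6 libraries was used, 3 control and 3 U-IRX3ov, grouped by title. The authors deposited 1 table of raw counts per gene symbol, not normalized. Reads were aligned with HISAT2 2.0.4 to mm10, per the submitters' processing notes, while the counting program, its annotation, its strandedness and its treatment of reads with several matches are not stated in the sources used here, nor is the word combined in the library descriptions.

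Genes were filtered with filterByExpr of edgeR 4.0.16 (R 4.3.3), scaled by TMM and tested with a robust quasi-likelihood F test on group, with Benjamini-Hochberg adjustment over all 14757 genes, which held at least 99.9% of each library's counts. The threshold was an adjusted p of 0.05. Each SE was taken as the absolute log2 fold change over the square root of the F statistic. The biological coefficient of variation was 5.12%. The fit was also run on simulated counts with the same dispersion for every gene, which cannot show how the calls hold under the spread of real genes. Coordinates, overlaps and exon lengths are from GENCODE genes on GRCm38 (the same assembly as mm10), and promoter sequences from RefSeq. Relative levels added 0.1 to each CPM, and ratios added 0.5 to each count.

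The members and all gene lists were chosen with earlier results of these data known. All members are named. Values per library are given for members of at least 10 CPM in control and for those that did not fall, and up to 3 genes of each other list with the smallest p, or its defining markers, are named. Other genes are named where a count was small, after their values were seen. Alternatives were 2 other scalings, 2 other filters, DESeq2 1.42.0, limma-voom (limma 3.58.1), a stricter adjusted p of 0.01, edgeR's glmTreat with a 1.5-fold margin, a block for the replicate number, and leaving out each library.

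Replicates differed by more than counting noise (chi-square per degree of freedom 2.99 to 5.20). Same-numbered libraries of the groups had correlations of deviations of 0.02, 0.07 and 0.05, all under 0.1, and nothing in the labels says that a number pairs them.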

Additional observations from a re-analysis of the deposited data

How the results depend on the processing

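The number of members that fell was 27 to 30 under the other scalings, filters, tools and thresholds, and 21 in the test against a 1.5-fold change (edgeR's glmTreat), where 405 genes in all were lower, 277 were higher and 0 members were higher, Lgals3 having an adjusted p of 0.00533 against no change. Leaving out each library in turn gave 27 to 30 members that fell (median -1.30 to -1.18) and 0 to 1 that rose, with 0 without control replicate 1. With the replicate number as a block 30 members fell and 1 rose, beside 3159 genes lower and 3014 higher. Each library correlated best with its own number, a hint from the data and not from the design. The call was kept in every setting with a value by 21 of the 30 members that fell. Spi1, Trem2, Clec4n, Clec7a, Cd163 and Cybb lost it only in the 1.5-fold test, and Cd14, Lyz2 and Ear2 in 4, 5 and 6 settings. The log2 fold change of Mertk ran from -0.25 without U-IRX3ov replicate 3 to 0.069 without U-IRX3ov replicate 2, and the cause was not tested. Clec4n, Cd163 and Ear2 have no value with a filter at a mean of 1 CPM. Scaling moved the median of all genes by at most 0.0161. The filter left out Laptm5, Itgax and Cx3cr1; with no filter 36 members were tested and 30 fell.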
